A study of Gallus gallus with 30 samples.

Results

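The genes described here each had at least 1 reading on the array that kept a line gap at every age examined. That signal in breast muscle was higher in broilers than in layers from 1 day after hatch to 8 weeks, or lower at each of those ages. The muscle was the Pectoralis major of male chickens of 2 lines. The broilers were AA birds, a commercial meat strain sold as Arbor Acres, and the layers were White Leghorn, an egg breed. Birds were sampled at the age of 1 d and of 2, 4, 6 and 8 w, where d stands for days and w for weeks after hatch. Housing and feed, a diet made for layers, were shared by the lines. At each age, muscle RNA from 5 males was combined into a single pool per line and read on 3 Affymetrix Chicken Genome Arrays, which gives 30 arrays over 10 pools. Arrays that share a pool repeat the measurement and not the birds, and their SD says nothing of the spread between birds.

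The genes were chosen by their measured values. The signals of the 3 arrays of a pool were averaged on the log2 scale, and the layer pool was subtracted from the broiler pool of the same age. A probe set, which is the group of probes on the array that reads a transcript, was kept when it carried a single gene symbol and when this gap was at least 0.6 log2 at all 5 ages, or at most -0.6 at all 5. Of 27168 probe sets with 1 symbol, 44 were kept. Of these, 18 were higher in broilers (0.0663% of the probe sets) and 26 were lower (0.0957%), and they belong to 42 genes out of 13009 on the array. A further 9 probe sets passed the same limit but had no symbol or several, and they are not described. A gene is called higher or lower in broilers below by its selected probe set. Other probe sets of the same gene often did not show the gap. Since the gap between the lines chose the genes, it is given below as a description with no test, and the tests given use measures that do not contain it.

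A gap of this kind holds through a period in which the muscle itself changes. Newly hatched chicks have immature breast muscle, which grows after hatch mainly by enlargement of fast-twitch fibres. Chicken lines also differ in DNA sequence, and an array reads a transcript through short probes made for a single reference sequence. For that reason every probe set of each gene was examined, and not only the probe set that met the rule. In pooled tissue, fewer cells of a type and less RNA per cell cannot be told apart.

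The tissue was checked against marker genes of its label. The 13 measured muscle fibre markers had a median signal of 12.3 log2, while the median over all probe sets was 4.14, and their summed level ran from 16.1 to 16.4 in broiler pools and from 16.0 to 16.3 in layer pools. Of 86 unselected marker genes of muscle and 9 other tissue cell types, none passed the test of the line difference (limma, adjusted p under 0.05). Of all probe sets, 0.630% passed as higher in broilers and 0.723% as lower, so no call among 86 genes says little about cell make-up. The median difference of the 86 was 0.02 log2. By cell type the median ran from -0.21 log2 for cartilage and bone to 0.20 log2 for adipocytes. It reached -0.88 log2 at 1 d for cartilage and bone, and 0.51 log2 at 2 w for adipocytes. Array medians lay between 4.08 and 4.19.

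The 44 probe sets had gaps of mostly moderate size, even over age in some and uneven in others. The median size of the mean gap over the 5 ages was 1.22 log2 (2.33-fold), from 0.71 to 4.69, and it was above 2-fold for 34 of the 44. In 24 of them the largest of the 5 gaps was under 2 times the smallest on the log2 scale. In LOC107052719 it was 6.98 times the smallest. In 34 the 5 broiler pools did not overlap with the 5 layer pools even when all ages were combined, and in 34 the mean gap was larger than the whole range of the line average over age. The rule itself pushes both counts up, and their shares over all probe sets were not taken. The individual arrays of the lines did not overlap at any age in 33 of the 44, which happened in 0.541% of all probe sets with 1 symbol, a share that the rule itself pushes up among the selected ones. Of the 11 with an overlap, the 3 higher in broilers overlapped at 1 d and the 8 lower in broilers at 6 w. The layer pool of 6 w had the largest spread between arrays, with a median SD of 0.171 log2 over all probe sets (0.132 to 0.165 in the other pools), and the third of its arrays lay farthest from its pool. Without that array 17 probe sets higher in broilers and 31 lower met the rule, among them 17 of the 18 and all 26. The smallest gap was larger than the largest SD between arrays of a pool in 38, a count that the rule also pushes up and that has no share over all probe sets beside it. All but 2 had a mean signal above the median of the array, beside 54.9% of all probe sets with 1 symbol. A gap of this size needs signal in at least 1 line, so the rule favours bright probe sets.

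**Figure D1:**
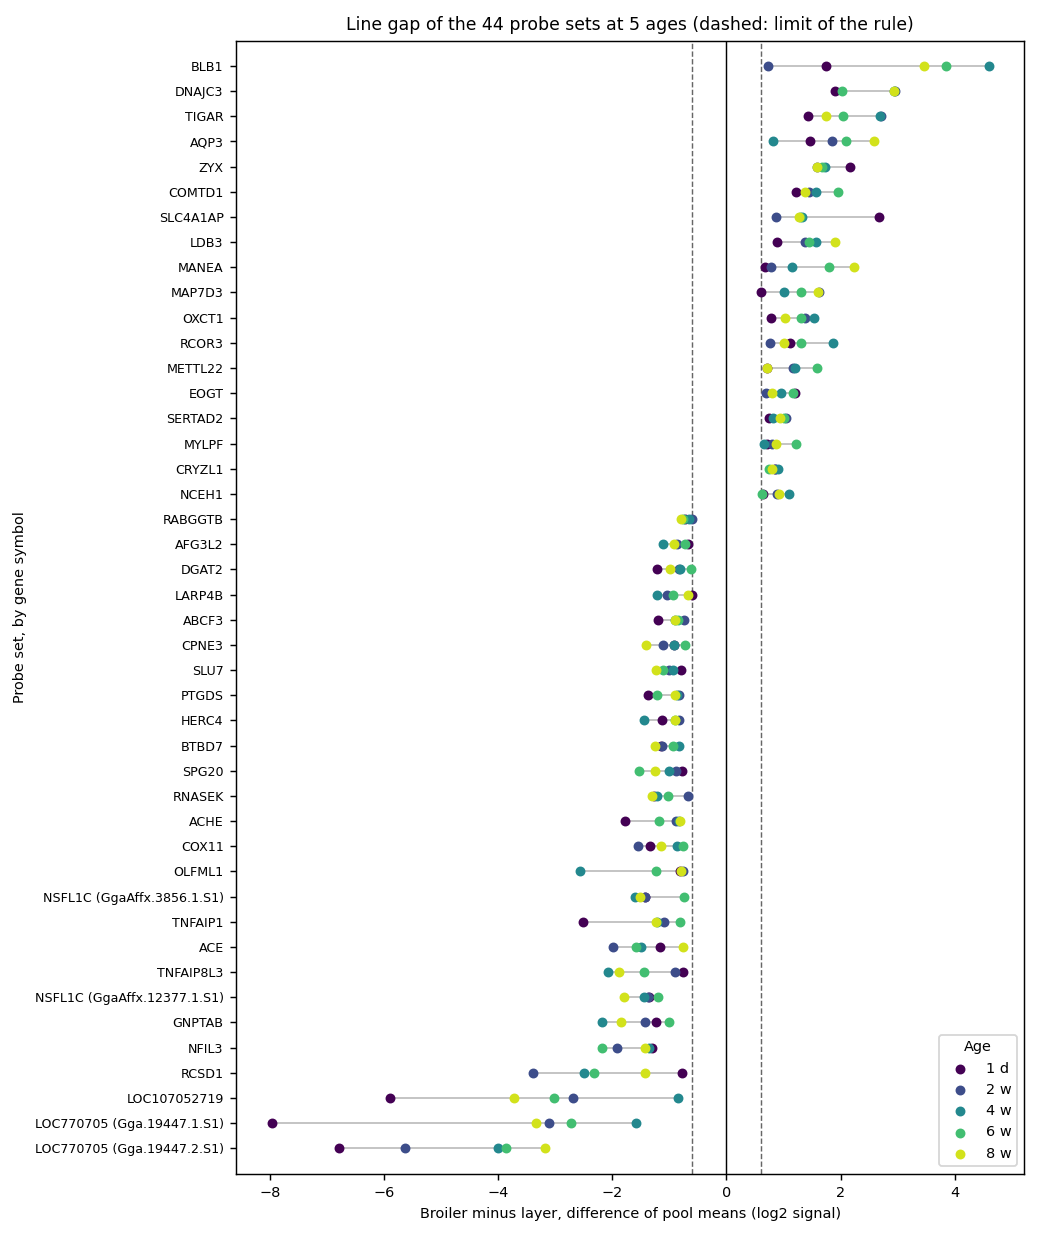
Broiler minus layer difference of pool means (log2 signal, horizontal axis) of the 44 probe sets, a row for each, with a point for each of the 5 ages and a grey line over their range. The dashed lines are the limit of 0.6. Most rows are short, and the 5 longest are those of BLB1, RCSD1, LOC107052719 and both probe sets of LOC770705.

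Of the genes higher in broilers, DNAJC3, ZYX, TIGAR and LDB3 are described first. DNAJC3 encodes a co-chaperone of the endoplasmic reticulum that in mammals restrains the stress kinase PERK. Its probe set read 5.12, 5.64, 5.72, 5.64 and 5.80 log2 in the 5 broiler pools in order of age, and 3.21, 2.69, 2.79, 3.62 and 2.86 in the layer pools. The layer pools lay below the median of the array and the broiler pools above it at every age, and the mean gap was 5.85-fold (3.75-fold to 7.72-fold over the ages). ZYX encodes zyxin, a LIM protein of focal adhesions. It read 8.82, 7.71, 8.18, 8.08 and 8.29 in broilers and 6.66, 6.12, 6.45, 6.41 and 6.70 in layers, a mean gap of 3.36-fold. Both lines were lowest at 2 w, and the gap was largest at 1 d (4.48-fold) and stayed between 1.58 and 1.73 log2 thereafter.

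TIGAR encodes a phosphatase that in human cells breaks down fructose 2,6-bisphosphate and so slows glycolysis. Its levels were 6.73, 9.09, 8.61, 8.69 and 7.90 in broilers and 5.29, 6.38, 5.93, 6.64 and 6.15 in layers. Both lines were lowest at 1 d, and the gap was 2.71-fold at that age and 6.56-fold at 2 w. The array holds no other probe set for TIGAR. LDB3, also called cypher or ZASP, is a protein of the Z-disc that anchors the thin filaments. It read 8.71, 9.58, 9.65, 9.69 and 10.08 in broilers and 7.83, 8.20, 8.08, 8.24 and 8.18 in layers, and the layer pools of all ages were below the lowest broiler pool. Its gap was smallest at 1 d (0.88 log2) and largest at 8 w (1.90 log2).

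**Figure D2:**
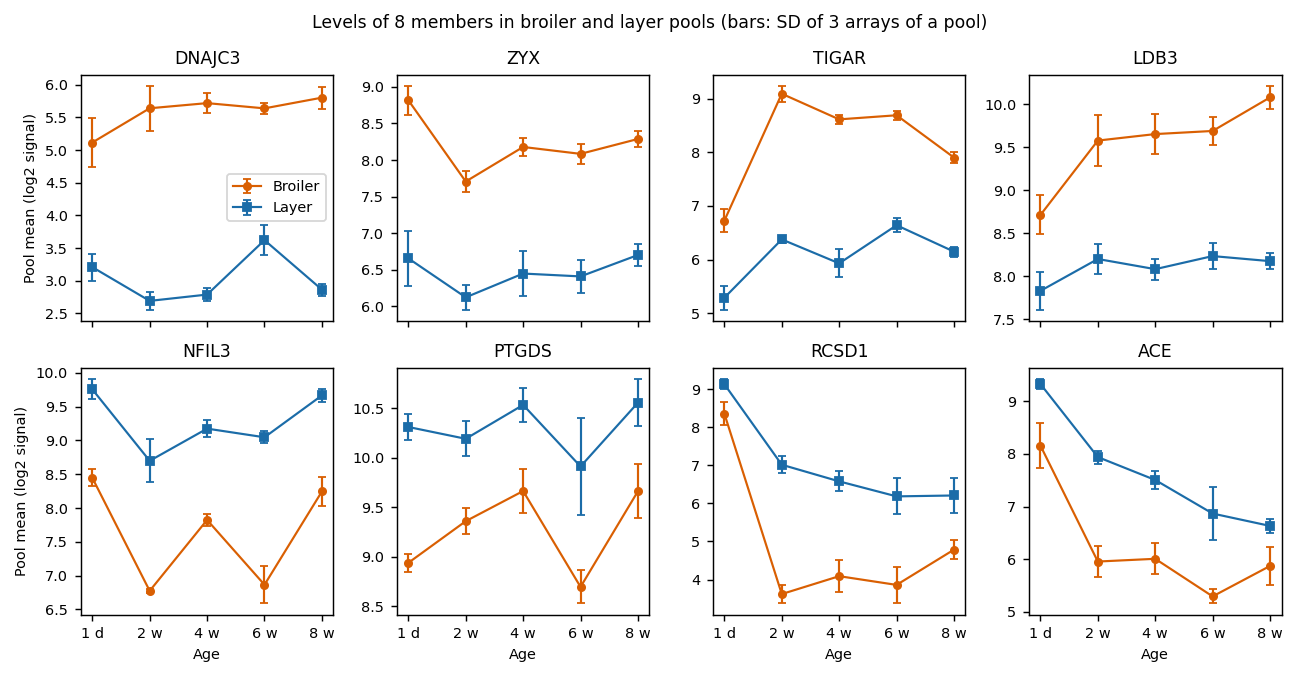
Pool means (log2 signal) of 8 of the genes against age, broilers as circles and layers as squares, with bars for the SD of the 3 arrays of a pool. The rule keeps the lines from crossing at any age. RCSD1 and ACE go down from 1 d to 2 w in both lines.

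OXCT1 encodes the mitochondrial enzyme that activates ketone bodies for use as fuel. Its brightest probe set was nearly flat in broilers, at 9.43, 9.43, 9.52, 9.56 and 9.39, and lower in layers, at 8.65, 8.04, 7.98, 8.24 and 8.36. The probe set aligns to chromosome Z, minus strand, from 12594284 to 12595190 of the build WUSTL Gallus-gallus-2.1, as the annotation of the array gives it. MYLPF, the regulatory light chain of fast skeletal myosin, was the brightest of the 44. It read 12.27, 12.60, 12.77, 12.56 and 12.53 in broilers and 11.56, 11.80, 12.11, 11.35 and 11.67 in layers, a mean gap of 1.80-fold, and the SD between the 3 arrays of a pool reached 0.87. The other 12 muscle fibre markers had a median line difference of 0.03 log2, from -0.22 to 0.58, and none passed the test. AQP3, a channel for water and glycerol, read 6.99, 6.99, 7.77, 7.04 and 7.62 in broilers and 5.53, 5.14, 6.95, 4.95 and 5.03 in layers. Its arrays overlapped between the lines at 1 d, the gap was smallest at 4 w (0.82 log2), and the largest SD within a pool was 1.18.

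CRYZL1, a quinone oxidoreductase-like protein, had the most even gap of the genes higher in broilers. It was 0.86, 0.86, 0.91, 0.75 and 0.80 log2 from 1 d to 8 w (1.68-fold to 1.88-fold), and the SD of the 5 gaps was 0.06. SERTAD2, a co-regulator of transcription, had gaps of 0.74 to 1.05 log2, and its line average ranged over 1.54 log2 with age, so that broiler and layer pools overlapped when ages were mixed. NCEH1, which hydrolyses cholesterol esters, had gaps of 0.62 to 1.09 log2 over an age range of 1.54 log2. These 3 kept their gap in different settings, with an age range of 0.32 log2 for CRYZL1 and levels that moved by more than 2-fold for the other pair.

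The remaining genes higher in broilers had mean gaps of 0.96 to 2.87 log2. BLB1, a beta chain of the MHC class II molecules that present peptides to T cells, had the largest and the least even gap. Its probe set read 5.06, 4.37, 8.16, 7.74 and 7.60 in broilers and 3.33, 3.65, 3.57, 3.89 and 4.14 in layers, so that the gap was 1.65-fold at 2 w and 24.2-fold at 4 w. The layer pools of this probe set were near or below the median of the array, so these folds are not taken as exact sizes. COMTD1, a protein with a catechol O-methyltransferase domain, was 2.85-fold higher (2.33-fold to 3.87-fold), and RCOR3, a member of the CoREST family of corepressors, was 2.31-fold higher (1.69-fold to 3.63-fold). SLC4A1AP, also called kanadaptin, had a gap of 2.67 log2 at 1 d and of 0.87 to 1.33 log2 later, at a mean signal of 3.36, below the median of the array. MANEA, an endomannosidase of the Golgi, was the other gene below that median, and its gap was 0.67, 0.78, 1.15, 1.80 and 2.23 log2, larger at each age than at the one before. EOGT, which adds O-linked N-acetylglucosamine in the endoplasmic reticulum, METTL22, a lysine methyltransferase, and MAP7D3, a microtubule-associated protein, were 1.95-fold, 2.11-fold and 2.35-fold higher.

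Among the genes lower in broilers, NFIL3, PTGDS, ACE and ACHE have well known roles. NFIL3 encodes a bZIP repressor of clock-controlled genes. It read 8.45, 6.78, 7.82, 6.87 and 8.24 in broilers and 9.76, 8.70, 9.17, 9.05 and 9.67 in layers, a mean gap of 3.11-fold. Broilers were high at 1 d, 4 w and 8 w and low at 2 w and 6 w. Layers were highest at 1 d and 8 w and lowest at 2 w, and their arrays of 4 w and 6 w overlapped. The highest broiler pool was below the lowest layer pool. PTGDS, a prostaglandin D synthase, read 8.94, 9.36, 9.66, 8.69 and 9.66 in broilers and 10.31, 10.19, 10.53, 9.91 and 10.56 in layers, a mean gap of 2.05-fold. It has 1 probe set, which aligns to chromosome 17, minus strand, from 888782 to 890850 of the same build.

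ACE encodes the angiotensin-converting enzyme, which is bound to the surface of endothelial cells. Its levels were 8.16, 5.95, 6.01, 5.29 and 5.87 in broilers and 9.33, 7.94, 7.50, 6.87 and 6.63 in layers. Both lines were highest at 1 d. The layer pools of every age were above the broiler pools of the same age, as the rule requires, and the mean gap was 2.64-fold. Of 12 endothelial markers, 11 were above layers on average (median difference 0.17 log2) and none passed the test, and their summed level was 11.3 to 11.7 in broiler pools and 11.0 to 11.6 in layer pools. ACHE, the acetylcholinesterase of the neuromuscular junction, read 7.99, 7.54, 7.31, 7.14 and 6.68 in broilers and 9.77, 8.43, 8.13, 8.32 and 7.49 in layers, a mean gap of 2.14-fold. Of 7 nerve and Schwann cell markers, 6 were below layers on average (median difference -0.18 log2) and none passed the test. Their summed level was 9.22 to 12.0 in broiler pools and 9.82 to 11.7 in layer pools, and their part in the gap of ACHE was not tested.

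RCSD1, known in mammals as CapZIP for its binding to the actin capping protein CapZ, had a gap on top of a large change with age. It read 8.35, 3.62, 4.09, 3.86 and 4.79 in broilers and 9.13, 7.01, 6.58, 6.18 and 6.21 in layers. The lines were 1.71-fold apart at 1 d and 10.5-fold apart at 2 w, where the broiler pool had dropped further. The broiler pools of 2 w, 4 w and 6 w were below the median of the array. The folds at those ages are therefore not taken as exact sizes. The probe set aligns to chromosome 1, minus strand, from 94857038 to 94860368.

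NSFL1C, the p47 cofactor of the ATPase p97, met the rule with 2 probe sets. The first read 5.88, 6.55, 6.50, 6.60 and 6.16 in broilers and 7.23, 7.92, 7.94, 7.80 and 7.95 in layers. The second read 5.66, 6.11, 6.11, 6.46 and 6.04 in broilers and 7.09, 7.53, 7.71, 7.21 and 7.55 in layers. The 2 mean gaps were 2.70-fold and 2.54-fold, and at 6 w, where the second had its smallest gap (0.75 log2), its arrays overlapped between the lines. RABGGTB, the beta subunit of the enzyme that attaches lipid anchors to Rab proteins, had the most even gap of the genes lower in broilers. It read 6.18, 6.28, 6.37, 5.96 and 6.43 in broilers and 6.90, 6.89, 7.03, 6.73 and 7.23 in layers, and the gap stayed between 1.52-fold and 1.74-fold.

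GNPTAB, an enzyme that marks proteins for the lysosome, was 2.90-fold lower in broilers (2.00-fold to 4.56-fold). HERC4, a HECT ubiquitin ligase, was 2.06-fold lower, SLU7, a splicing factor, 2.02-fold, BTBD7, a BTB domain protein, 2.08-fold, and SPG20, or spartin, 2.13-fold. TNFAIP1, an adaptor of a cullin ubiquitin ligase, was 2.59-fold lower, with its largest gap at 1 d (5.72-fold). COX11 and AFG3L2, which serve the assembly of cytochrome oxidase and the quality control of mitochondrial proteins, were 2.19-fold and 1.81-fold lower. TNFAIP8L3 and OLFML1 were 2.66-fold and 2.35-fold lower, both with their largest gap at 4 w. ABCF3, CPNE3, RNASEK, DGAT2 and LARP4B were between 1.86-fold and 2.14-fold lower. In 18 of the 26 probe sets lower in broilers the arrays of the lines did not overlap at any age, and in 15 of the 18 that were higher. This happened in 0.541% of all probe sets with 1 symbol. The rule itself pushes both counts up, so they are no measure of stability.

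A pair of genes with no name had some of the largest gaps, and in both the broiler pool of 1 d was below the median of the array. The platform annotation gives the symbol LOC770705 to 2 probe sets, whose older title in the annotation of the array was "similar to pol", a name used for reverse transcriptase genes of retroelements. The first read 3.05, 3.92, 4.87, 5.23 and 5.99 in broilers and 9.85, 9.55, 8.87, 9.09 and 9.16 in layers. The second read 3.50, 8.58, 9.48, 9.20 and 8.34 in broilers and 11.46, 11.68, 11.06, 11.92 and 11.68 in layers. In both, the broiler pool was low at 1 d and higher later, so the gap was -6.80 log2 at 1 d but -3.18 log2 at 8 w in the first, and -7.96 log2 at 1 d but -1.59 log2 at 4 w in the second. LOC107052719 read 2.43, 4.52, 5.29, 4.33 and 2.53 in broilers and 8.32, 7.20, 6.13, 7.35 and 6.26 in layers, with a gap of -0.84 log2 at 4 w and of -5.89 log2 at 1 d. Gaps against such low signals are not taken as exact sizes, and the same holds for DNAJC3, SLC4A1AP and MANEA, whose layer pools were below the median. The broiler pools of SLC4A1AP from 2 w on (3.50 to 4.03) and of MANEA at 1 d (4.01) were below it as well. The same caution holds for MAP7D3 in layers and CPNE3 in broilers from 2 w on, and for RCSD1 in broilers from 2 w to 6 w. SERTAD2 was below the median in layers at 2 w, TNFAIP1 in broilers at 8 w, and COX11 and TNFAIP8L3 in broilers at 1 d. Whether each of the 3 probe sets of LOC770705 and LOC107052719 reads a single place in the genome was not tested.

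Near the limit, the choice of 0.6 decides membership. Just inside it on the higher side, by the smallest of the 5 gaps, were MAP7D3 (0.604), NCEH1 (0.619) and MYLPF (0.658), and just outside were CERS4 (0.545), LOC770248 (0.537) and CALML4 (0.534). On the lower side RABGGTB (0.608), LARP4B (0.610) and DGAT2 (0.621) were just inside, while HS6ST2 (0.593), RPF2 (0.577) and a further probe set of LARP4B (0.570) were just outside.

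The other probe sets of the same genes often did not show the gap. Of the 42 genes, 13 had only the selected probe set, among them TIGAR, COMTD1, AQP3, CRYZL1, MYLPF, NFIL3, PTGDS and ACE. The other 29 genes had more than 1, and apart from the selected probe sets they held 60 others, of 28 genes. For genes higher in broilers, 9 of 32 other probe sets (28.1%) were higher in broilers at all 5 ages, against 7.05% of all probe sets with 1 symbol. For genes lower in broilers, 8 of 28 (28.6%) were lower at all 5 ages, against 6.96%. The mean gap reached 0.6 in the direction of the gene in 4 of the 32 and in 3 of the 28, against 0.633% and 0.802% of all probe sets. Those 4 and 3 came from 2 genes each, and the 9 and 8 with the sign at all ages from 7 and 6 genes. A probe set of these genes that met the rule counts as selected, so the 60 are those that did not meet it. That pushes down the shares with a gap among them. They read the same pools, and no test is given on them. In 42 of the 60, all 5 gaps were under 0.6 in size. The choice of the 60 pushes this share up, and the share over all probe sets was not taken.

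Many of the 60 were dim. Of the 38 above the median signal of the array, 16 had the sign of the gene at all 5 ages and 20 had all gaps under 0.6. Sorted by gene, 2 had a further probe set past the limit (LOC770705 and NSFL1C), 4 had another with a mean gap of at least 0.6 (OXCT1, BLB1, LARP4B and SPG20), and 9 had another with the same sign at all 5 ages and a smaller mean gap. In 12 genes a probe set above the median signal was present and none of the others had the sign throughout, and in 2 (TNFAIP1 and CPNE3) the others were dim.

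**Figure D3:**
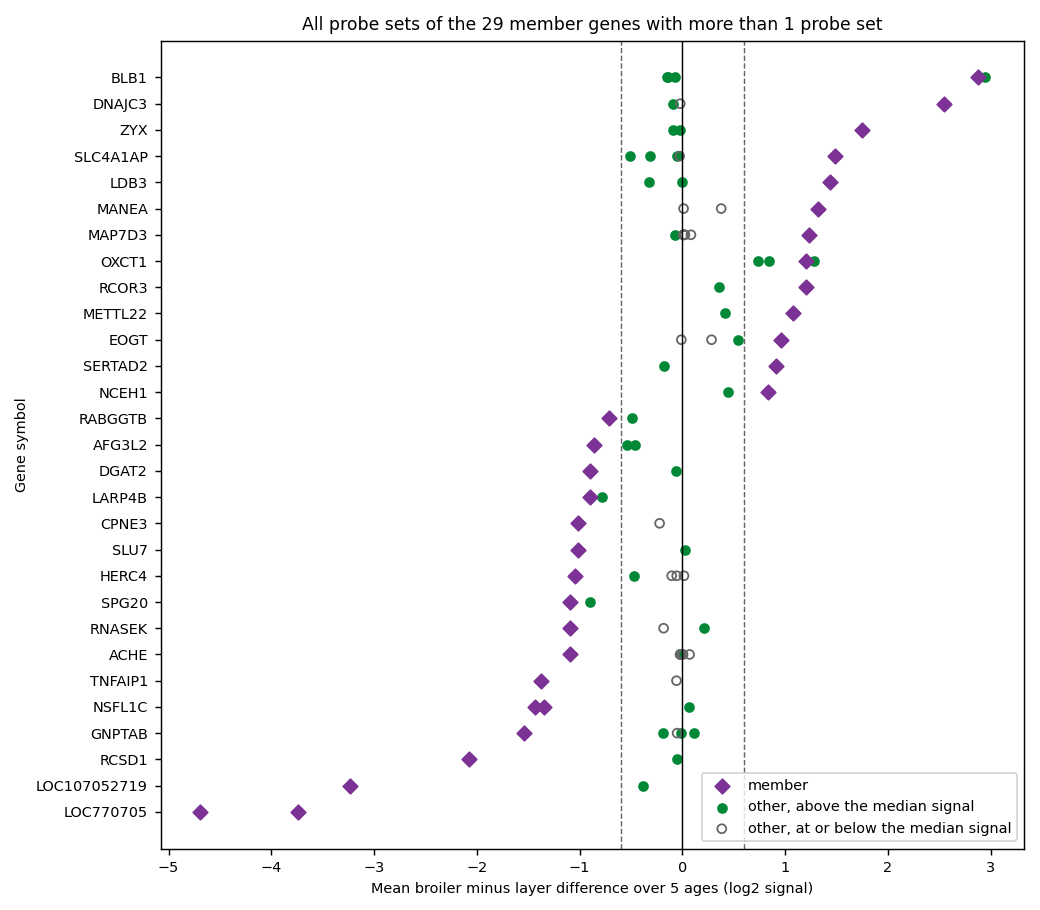
Mean broiler minus layer difference over 5 ages (log2 signal, horizontal axis) for every probe set of the 29 genes with more than 1, with the selected probe sets as diamonds, others above the median signal as filled circles and dimmer ones as open circles. Most circles lie between the dashed lines at -0.6 and 0.6, while those of OXCT1, LARP4B, SPG20 and 1 of BLB1 lie beside their diamonds.

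Genes whose probe sets moved together were OXCT1, LARP4B, SPG20, AFG3L2 and RABGGTB. The 3 other probe sets of OXCT1 had gaps of 0.89 to 1.97 log2 from 2 w to 6 w and of 0.73 to 1.22 log2 at 8 w, but only 0.01 to 0.20 log2 at 1 d, where the selected probe set had 0.78. The line gap of OXCT1 from 2 w on was read by all 4 probe sets, and the gap at 1 d by a single probe set. The 3 probe sets of LARP4B, a La-related RNA-binding protein, had gaps of -0.61, -1.04, -1.22, -0.93 and -0.68, of -0.58, -1.05, -1.11, -0.53 and -0.63, and of -0.86, -1.28, -1.18, -0.57 and -0.62 log2. All 3 were largest at 2 w or 4 w, and only the limit separates the selected one from the other pair. The second probe set of RABGGTB had gaps of -0.38 to -0.62 log2, and that of SPG20 gaps of -0.38 to -1.17 log2. Both other probe sets of AFG3L2 were lower in broilers at all ages, with gaps of -0.21 to -0.77 log2.

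Other genes had a bright probe set without the gap. The symbol ZYX covers 3 probe sets, and 2 of them were made for the same target sequence. Of that pair, the selected one had the gap of 3.36-fold at a mean signal of 7.34, while the other, at a mean signal of 7.25, had gaps of 0.12, 0.11, -0.09, -0.04 and -0.21 log2. The third ZYX probe set had gaps from -0.33 to 0.16 log2. For DNAJC3, a probe set with a mean signal of 8.03, far brighter than the selected one at 4.31, had gaps of 0.22, 0.05, -0.13, -0.17 and -0.40 log2. For LDB3, a probe set at 12.1 had gaps between -0.13 and 0.19 log2, and the selected one had a mean signal of 8.82. The third LDB3 probe set, at 5.08, had gaps of -0.37, 0.29, -0.23, -0.45 and -0.85 log2, opposite to the selected one at 4 of the 5 ages. RCSD1 was read by another probe set at 8.05, with gaps of -0.05, -0.66, 0.03, -0.10 and 0.50 log2.

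For SLC4A1AP, the other probe set made for the same target was lower in broilers at all 5 ages, with gaps of -0.23 to -0.83 log2 at a mean signal of 5.60, whereas the selected one was higher. It was the single case among the 60 with the opposite sign throughout. EOGT held the third pair made for a shared target, and there the other probe set had gaps of 0.59, 0.80, 0.61, 0.65 and 0.05 log2, in the direction of the selected one. Of the 5 probe sets of BLB1, a second had gaps of 0.19, 1.83, 3.97, 3.81 and 4.95 log2, and 3 others with mean signals of 8.16 to 9.81 had gaps between -0.47 and 0.24 log2. The selected BLB1 probe set aligns to chromosome 16, plus strand, from 69809 to 70708, and its name carries the suffix x_at, with which Affymetrix marks probe sets that may also bind other transcripts. MHC genes vary strongly between chicken lines. A difference in sequence between the lines under the probes was not tested for any of the genes, since the probe sequences were not used here.

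The other genes fell between these cases. In METTL22, NCEH1 and RCOR3 the second probe set was higher in broilers at every age with a smaller mean gap than the selected one, and its gaps were of 0.10 to 1.00, 0.11 to 0.64 and 0.11 to 0.47 log2. MANEA had a probe set with gaps of 0.09 to 0.54 log2 at a mean signal of 3.63, and HERC4 had one with gaps of -0.12 to -0.79 log2 at 6.24, beside 3 dim ones. The second probe set of LOC107052719, at a mean signal of 4.38, had gaps of -0.04 to -0.57 log2, where the selected one reached -5.89.

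Bright probe sets without a gap were also found for GNPTAB, SLU7, DGAT2, SERTAD2 and RNASEK. The 3 of GNPTAB, at mean signals of 6.72 to 7.52, had gaps from -0.54 to 0.55 log2 with both signs. That of SLU7 (6.28) had gaps of -0.22 to 0.41 log2, that of DGAT2 (4.86) -0.19 to 0.06 log2, that of SERTAD2 (5.99) -0.51 to 0.02 log2 and that of RNASEK (5.66) -0.02 to 0.60 log2. The third probe set of NSFL1C (5.03) stayed between -0.07 and 0.18 log2, unlike the pair that met the rule. The 5 others of ACHE (mean signals 2.47 to 4.66) had gaps of -0.22 to 0.17 log2, and the 6 of MAP7D3 (2.68 to 4.19) gaps of -0.45 to 0.32 log2. Those of TNFAIP1 (3.33) and CPNE3 (3.66) were below the median of the array, and their gaps were -0.26 to 0.15 and -0.48 to 0.03 log2.

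**Figure D4:**
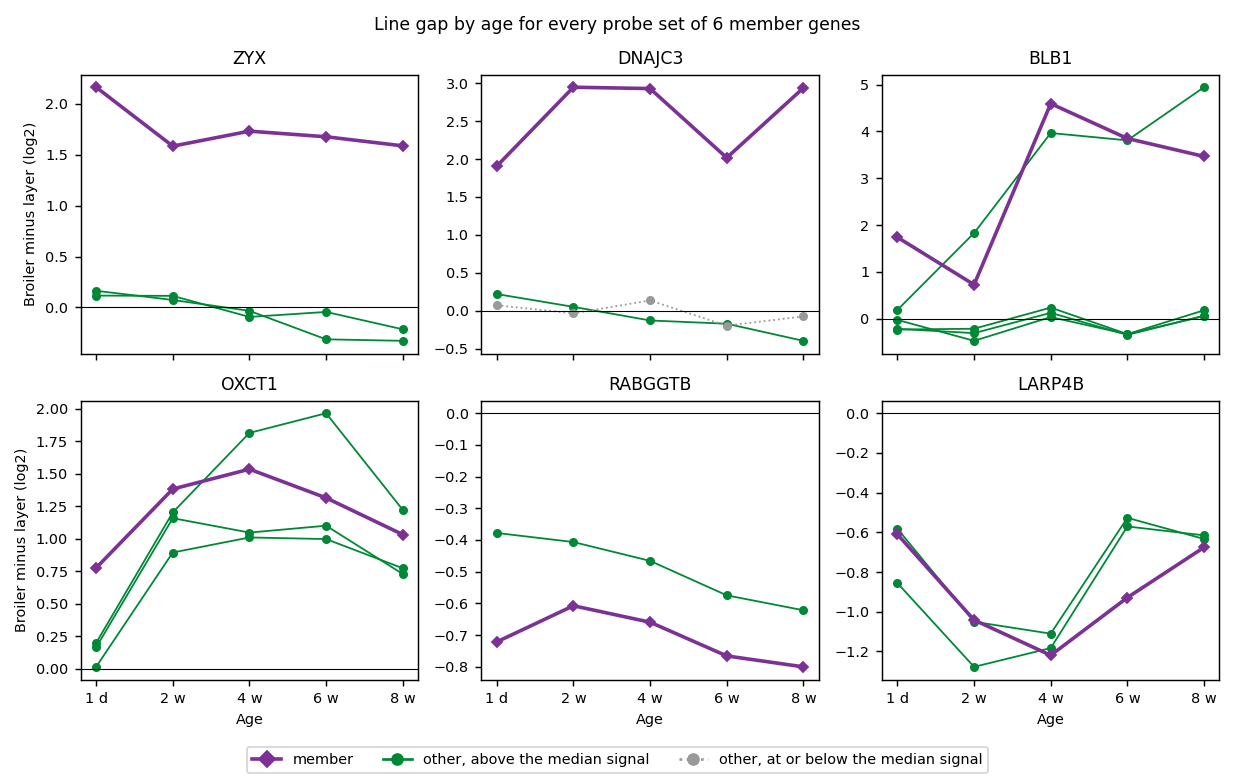
Broiler minus layer difference (log2, vertical axis, a scale of its own in each panel) by age for every probe set of 6 genes, the selected probe set as diamonds with a thick line. In ZYX and DNAJC3 the other probe sets stay near 0, in BLB1 they split into those with and without a gap, and in OXCT1, RABGGTB and LARP4B all lie on the same side from 2 w on.

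The kinds of probe set were mixed. Of the 44, 30 were of the plain kind (suffix at), 10 were of the kind that reads several transcripts (s_at), 3 carried the suffix a_at and 1 x_at, and over all probe sets with 1 symbol the shares of the first 2 kinds were 66.6% and 26.9%. The array was built from expressed sequences and from predicted genes, the latter with names that start with GgaAffx. There were 22 of the 44 with such a name (50.0%), against 44.3% of all.

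For 4 of the genes the study designed primers for qRT-PCR, the assay it used beside the arrays, whose readings were not used here. The primers are printed because they are a designed reading of these transcripts outside the array, 5′ to 3′, forward and then reverse. Where they lie relative to the probes was not established.
LDB3 forward: tgtgctgcttgtaagaagcca
LDB3 reverse: tggcattttgtgctgaacaaa
OXCT1 forward: tcgcctgatacagggagagaa
OXCT1 reverse: ctccctcacattgtctcctgg
EOGT forward: tggagctggactgacccact
EOGT reverse: gccttgccaaatccaggtaac
HERC4 forward: tgcctttggagaagaaaaaacag
HERC4 reverse: tgttggctggatgactagtttaagac

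The genes were also tested for change with age, on the average of the broiler and the layer pool at each age, which does not contain the gap. The later 4 ages were compared with 1 d (limma, with adjustment over 38439 probe sets). Of the 44 probe sets, 17 changed: 9 rose, beside 10.2% of all probe sets with 1 symbol, and 8 fell, beside 15.9%. The spread in this test comes from the later ages alone, since 1 d is a single value. Of the 44, 42 had a mean signal above the median, and brighter probe sets are called more often. Over all 38439 probe sets 3736 rose and 5374 fell, and a fit of only those above the median signal called 2864 and 4018. The shares of 10.2% and 15.9% therefore do not match the 44 in signal. RCSD1 fell most, by 3.45 ± 0.18 log2 (SE), or 10.9-fold (adjusted p = 4.36e-05), followed by ACE, which fell by 2.24 ± 0.32 log2 (adjusted p = 0.00271). ACHE fell by 1.25 ± 0.30 log2 (adjusted p = 0.0231), CPNE3, a copine that binds membranes with calcium, fell by 0.95 ± 0.14 log2 (adjusted p = 0.00301), and SPG20 fell by 0.90 ± 0.18 log2 (adjusted p = 0.0111). All 5 were lower than at 1 d at each later age in both lines. In broilers the selected RCSD1 probe set read 3.62, 4.09 and 3.86 at 2, 4 and 6 w, below the median of the array. The size of its fall is therefore not taken as exact. The brighter RCSD1 probe set read 9.87 at 1 d and 7.47 to 7.61 later in broilers. In layers that probe set read 9.92 at 1 d and 7.08 to 8.23 later.

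Of the genes higher in broilers, NCEH1 rose by 1.41 ± 0.16 log2 (adjusted p = 0.001), TIGAR by 1.42 ± 0.27 log2 (adjusted p = 0.00906) and LDB3 by 0.69 ± 0.15 log2 (adjusted p = 0.0152), each at all 4 later ages in both lines. SLC4A1AP fell by 0.84 ± 0.12 log2 (adjusted p = 0.00258), and SERTAD2 and MAP7D3 fell as well. The fall of SLC4A1AP lay in broilers, from 5.37 at 1 d to between 3.50 and 4.03, as the layer pools stayed between 2.51 and 2.74. It was read by the dim selected probe set alone. The brighter one for the same target read 5.41 at 1 d and 5.23 to 5.46 later in broilers. In layers that probe set read 5.72 at 1 d and 5.52 to 6.18 later. The fall of MAP7D3 lay mainly in layers, from 4.58 to between 3.63 and 3.87, and the broiler pools were above 1 d at 2 of the 4 later ages. Those later layer pools were below the median of the array. Of the genes lower in broilers, TNFAIP8L3, whose mammalian form transfers phosphoinositides, rose by 1.23 ± 0.22 log2 (adjusted p = 0.00722), and ABCF3, both probe sets of NSFL1C and BTBD7 rose by 0.46 to 0.90 log2. The second probe set of LOC770705 rose by 2.77 ± 0.21 log2 (adjusted p = 0.000198), and its rise lay in the broilers, as the layer pools stayed between 11.06 and 11.92. Directions were mixed in both groups, with 3 that rose and 3 that fell among the genes higher in broilers and 6 and 5 among those lower.

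Some of these calls rest on single ages or arrays. SERTAD2 was no longer past the threshold without the pools of 4 w or 6 w or without the first or second array of each pool (adjusted p = 0.0561 to 0.0778). MAP7D3 was lost without 4 w (0.0524), without 6 w (0.0504) and without the first arrays, where its change was only -0.20 log2 (adjusted p = 0.435). BTBD7 was lost without 4 w, 6 w, 8 w or the second arrays (adjusted p = 0.0546 to 0.0636), and the second probe set of NSFL1C without 4 w, 6 w, 8 w or the third arrays (0.0573 to 0.080). ABCF3 (adjusted p = 0.127) and ACHE (0.0516) were lost without the second arrays. A steady slope over the 5 ages was found in none of the 44 and in 7 of all 38439 probe sets (limma, adjusted p). An unadjusted p under 0.05 was found in 9 of the 44, beside 4396 of the 38439.

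**Figure D5:**
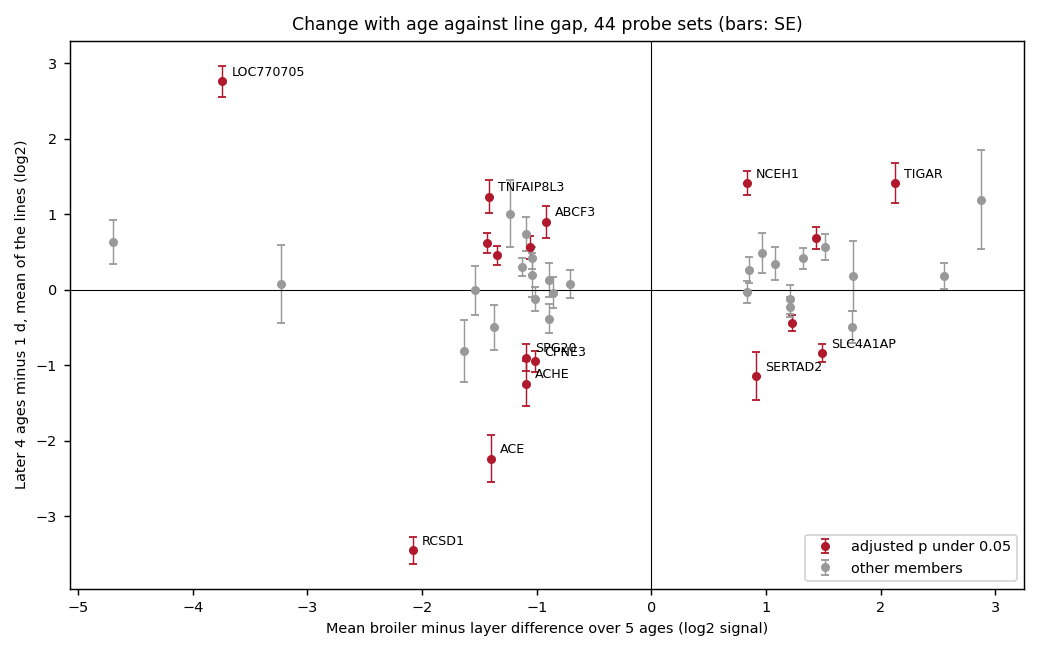
Change from 1 d to the later 4 ages, averaged over the lines (log2, vertical axis, bars for the SE), against the mean broiler minus layer difference (log2, horizontal axis) for the 44 probe sets, with those past the test in red. Rises and falls occur on both sides of 0, from -3.45 for RCSD1 to 2.77 for LOC770705.

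Genes with roles near those of the selected ones were compared between the lines. Of 14 lists of related genes, 13 held a selected gene and 1, of START domain and sterol carrier proteins, held none, and 169 measured genes of the 14 lists lay outside the selected ones. The line difference over all 10 pools was tested with age as a factor (limma), and 2 of the 169 were higher in broilers (0.630% of all probe sets were) and 1 was lower (0.723%), with a median difference of 0.01 log2. Each list gene was read by its brightest probe set, so the shares over all probe sets do not match the 169 in signal. The list of DNAJC3 held 17 other genes for chaperones and the stress response of the endoplasmic reticulum. None of them passed, and the differences ran from -0.12 to 0.26 log2. Among 13 other genes of focal adhesions or zyxin partners none passed (-0.07 to 0.38 log2). The same held for 15 genes of glycolysis and fructose bisphosphate metabolism beside TIGAR (-0.72 to 0.22 log2). The 6 other genes of ketone body use had a median of 0.20 log2 (-0.15 to 0.49), with none past the test. The 10 other genes of antigen presentation had a median of 0.07 log2 (-0.24 to 0.85), also with none, and the highest was BF2, an MHC class I gene, at 0.85 ± 0.19 log2 (adjusted p = 0.0723).

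The 3 that passed were ANPEP, an aminopeptidase that trims angiotensins, in the list of ACE (higher by 0.54 ± 0.09 log2, adjusted p = 0.029), CARMIL1, a regulator of the capping protein, in the list of RCSD1 (higher by 0.85 ± 0.14 log2, adjusted p = 0.0285), and BMAL1, a clock activator that the platform lists as ARNTL, in the list of NFIL3 (lower, -0.53 ± 0.10 log2, adjusted p = 0.036). ANPEP and CARMIL1 were thus higher where ACE and RCSD1 were lower. Each call was lost when an age was left out: ANPEP without any age but 1 d (adjusted p = 0.053 to 0.101), CARMIL1 without the same ages (0.0513 to 0.101), and BMAL1 without any of the 5 ages (0.0617 to 0.106). Without the second array of each pool ANPEP (0.055) and BMAL1 (0.0739) were lost as well. In the lists of aquaporins, ubiquitin ligases of the HECT and RLD kind, mitochondrial proteases, endoplasmic reticulum glycosylation and prostaglandin synthesis no other gene passed, and none of the 15 sterol carrier genes did. In the order named, differences ran from -0.72 to 0.70, -0.56 to 0.48, -0.36 to 0.40, -0.41 to 0.30 and -0.93 to 0.14 log2. Those of the sterol carrier genes ran from -0.17 to 0.87 log2.

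Genes beside the selected ones in the chicken genome were tested in the same way. The order of genes was taken from RefSeq for the assembly GRCg7b, in which 39 of the 42 genes were placed, and the 2 nearest measured genes on each side were read, 156 in all. Of these, 2 were higher in broilers (0.630% of all probe sets were) and 2 lower (0.723%) by the line test. Each neighbour was read by its brightest probe set, and brighter probe sets are called more often. Over all probe sets 242 were higher and 278 lower, and a fit of only those above the median signal called 209 and 256. The shares over all probe sets therefore do not match the neighbours in signal. CHPT1, the second gene from GNPTAB, was lower like it (-0.87 ± 0.12 log2, adjusted p = 0.0147), TOM1L1, beside COX11, was lower (-0.62 ± 0.07 log2, adjusted p = 0.00528), and TMF1, beside EOGT, was higher (0.57 ± 0.11 log2, adjusted p = 0.0398). TANC2, beside ACE, was higher (0.73 ± 0.08 log2, adjusted p = 0.00796) where ACE was lower. The calls of TOM1L1 and TANC2 held with any age left out, that of CHPT1 was lost without 4 w (adjusted p = 0.0514), and that of TMF1 without any age but 8 w and without the second arrays (0.0682 to 0.143). The selected genes themselves were scattered, and the closest pair in this order, ABCF3 and NCEH1, had 73 genes between them.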

How the data were processed

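RNA pools of 5 males from each of 2 lines at 5 ages were read on 30 Affymetrix Chicken Genome Arrays. The deposited log2 values were made by the authors with RMA. They drew present calls from MAS5, not used here, and the sources used here name no version. RMA summarises the probes of a probe set, so a probe that binds poorly in a line can lower the value of the set. Of 38535 probe sets 96 were array controls and left out, and the platform annotation gave 1 symbol for 27168, several for 177 and none for 11094. With 1 pool per line and age, the number of pools limits the precision.

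The 3 arrays of a pool were averaged with no further normalization. limma 3.58.1 in R 4.3.3 was fitted with an intensity trend and Benjamini-Hochberg adjustment over 38439 probe sets, with 0.05 as the threshold. Change after 1 d and slope used the mean of both lines at each age, and the line difference of genes outside the selection used the 10 pools with age as a factor. The line effect itself is not tested on the selected genes, since it chose them. The fits were tested on simulated data. Where the array holds several probe sets for a list or neighbouring gene, the one with the highest mean was used. The selected genes, the gene lists and the tests were chosen with earlier results of these data known. The genes named were the 15 with the largest smallest gap in each direction, those nearest the limit, those in a list, those with a further probe set past the limit or opposite in sign, and those with the largest change with age; the remaining selected genes were added so that all 42 are named. Alignments are those of the array annotation for WUSTL Gallus-gallus-2.1, which covered 15 of the 44. Alternatives tried were quantile normalization, centring, medians of arrays, other limits, no intensity trend, a signal filter, leaving out arrays or ages (a single array was chosen after seeing the data), 30 arrays as samples and a replicate block.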

Additional observations from a re-analysis of the deposited data

Results flagged for a closer look

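In 2 probe sets the lines moved in opposite directions after 1 d: by pool means, every later broiler pool was above that of 1 d and every later layer pool was below it. For the first probe set of LOC770705 the change was 1.95 log2 in broilers (0.86 to 2.94) and -0.68 log2 in layers (-0.98 to -0.30), a difference of 2.63 log2. For LOC107052719 it was 1.74 log2 in broilers (0.11 to 2.86) and -1.58 log2 in layers (-2.18 to -0.97), a difference of 3.32 log2. Neither difference was tested. The broiler pools of LOC107052719 at 1 d and 8 w, at 2.43 and 2.53, were both below the median of the array. Their arrays overlapped, from 2.26 to 2.61 at 1 d and from 2.40 to 2.76 at 8 w.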

How the results depend on the processing

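The 264 alternative values of the mean gaps of the 44 probe sets kept their sign and stayed within the spread of the arrays. The rule, with at least 0.6 log2 at all 5 ages, largely fixed the sign in advance, so the sign is no measure of stability. Membership moved more: leaving out an array of each pool gave 14 to 19 probe sets higher in broilers and 18 to 39 lower, a limit of 0.8 gave 7 and 12, and a limit of 0.5 gave 46 lower. Of those higher, MANEA, MAP7D3, NCEH1 and MYLPF were lost without the first arrays, MANEA, METTL22, EOGT, BLB1 and MYLPF without the second, and SERTAD2 and NCEH1 without the third. Of those lower, RCSD1, AFG3L2, CPNE3, DGAT2, RABGGTB, TNFAIP8L3, ABCF3 and 1 probe set of NSFL1C were lost without the first, COX11, CPNE3, SPG20, LARP4B, DGAT2, RABGGTB, TNFAIP1 and 1 of NSFL1C without the second, and LARP4B without the third. Leaving out only the third array of the layer pool of 6 w, chosen after seeing the data, gave 17 and 31 and lost NCEH1. With 1 d left out of the rule the counts were 47 higher and 52 lower, and with 8 w left out 31 were higher. For change after 1 d, leaving out arrays gave 7 to 12 probe sets that rose and 6 to 8 that fell; of 186 alternatives for single probe sets, 166 kept their call and 20 lost it with the same direction. For 169 list genes, leaving out arrays gave 1 to 2 higher and 1 to 2 lower calls. Leaving out the pools of 1 d gave 5 higher and 2 lower, of 2 w or 4 w 0 and 0, of 6 w 0 higher, and of 8 w 1 higher and 0 lower. Fewer pools enter those fits. Taking the 30 arrays as independent samples gave 21 and 14. With a replicate block for the array number and the pool as a random block, the counts were 19 higher and 13 lower; with the age as a random block, 15 of the 44 rose after 1 d, and the slope was called up in 6 and down in 3. The labels do not say what the array number marks: deviations of same-numbered arrays of different pools correlated with a median of 0.14 (-0.39 to 0.53), above 0.1 in 76 of 135 pairs, and those of different-numbered arrays with a median of -0.07, above 0.1 in 51 of 270. Each line at an age is 1 pool, so the spread between birds is not measured.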
